A study of Rattus norvegicus with 4 samples.

Results

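Interferon response and antigen processing genes were followed across 4 cultures of the rat skeletal myoblast line L6. The list held 47 genes, chosen by name for their roles as antiviral effectors, STAT and IRF factors, guanylate-binding proteins, immunoproteasome subunits and peptide loading factors. It was chosen with earlier results of these data known, so the shares set against all genes below are not those of a blind list. Of the 47 genes, 45 had a probe set named for that gene alone, out of 14217 genes in all. No probe set carried Gbp5 or Xaf1 as its single symbol in the annotation used, so these genes were not measured here. Wild-type cells (L6-WT) and cells with constitutive expression of human HGF (L6-HGF) were grown in either of 2 formats, monolayer or sheet, and the total RNA of each culture went on 1 Affymetrix rat genome array, which gave 4 arrays. All 4 cultures were of the same Wistar rat line. L6-HGF carried human hgf in a retroviral vector and had been selected with puromycin, whereas no empty-vector line was described, so that any effect of the vector or of the selection cannot be told apart from that of hHGF. Sheets came from myoblasts plated densely on thermoreactive dishes, from which they detach in 1 piece, so that density, dish and detachment cannot be told apart either.

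Interferons are secreted proteins by which cells warn each other of infection. Type I interferons bind a receptor that contains Ifnar1 and activate a complex that contains STAT2 and IRF9, which switches on genes with an interferon-stimulated response element in their promoters. Interferon gamma binds a receptor that contains Ifngr1 and raises IRF1, a main inducer of the immunoproteasome and of peptide loading onto MHC class I. Myoblasts answer both kinds of interferon, and skeletal muscle shows little MHC class I at rest.

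The deposited values were log2 values centred on the median of the 4 arrays for each probe set. They are given here as deviations, so that a positive number marks an array above the middle of the 4, and they hold no signal level. Centring also means that, in a gene with 1 probe set, the 2 middle arrays mirror each other. With 1 array per condition no difference within a format or a line had a replicate check, and values between 2 arrays were called by size alone, at 2-fold or 1 on the log2 scale. In bulk RNA, fewer cells of a type and less RNA per cell cannot be told apart. The SD of all deviations was 0.20 in the L6-WT monolayer, 0.22 in the L6-WT sheet, 0.21 in the L6-HGF monolayer and 0.28 in the L6-HGF sheet. Between pairs of arrays the SD over 45 bacterial controls was 0.12 to 0.22, and 0 of them passed 2-fold. The 3' minus 5' difference of the actin controls lay between -0.12 and 0.11 over the arrays, lower in both monolayers than in both sheets. That of the GAPDH controls was 0.02 in both wild-type cultures, -0.02 in the L6-HGF monolayer and 0.08 in the L6-HGF sheet, so that it was lowest and highest in the L6-HGF cultures. Both are differences of centred values, so they compare the arrays and do not show how intact the RNA was. The part of either in the results below was not tested.

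Most often the highest array was the L6-HGF monolayer and the lowest the L6-HGF sheet, though not always in the same gene. Of 45 members, 24 were highest in the L6-HGF monolayer, against 23.3% of all genes, and 29 were lowest in the L6-HGF sheet, against 25.9% of all genes. Both held for 16 members, against 9.74% of all genes. The median deviation over the members was 0.02 in the L6-WT monolayer, 0.05 in the L6-WT sheet, 0.13 in the L6-HGF monolayer and -0.20 in the L6-HGF sheet.

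**Figure D1:**
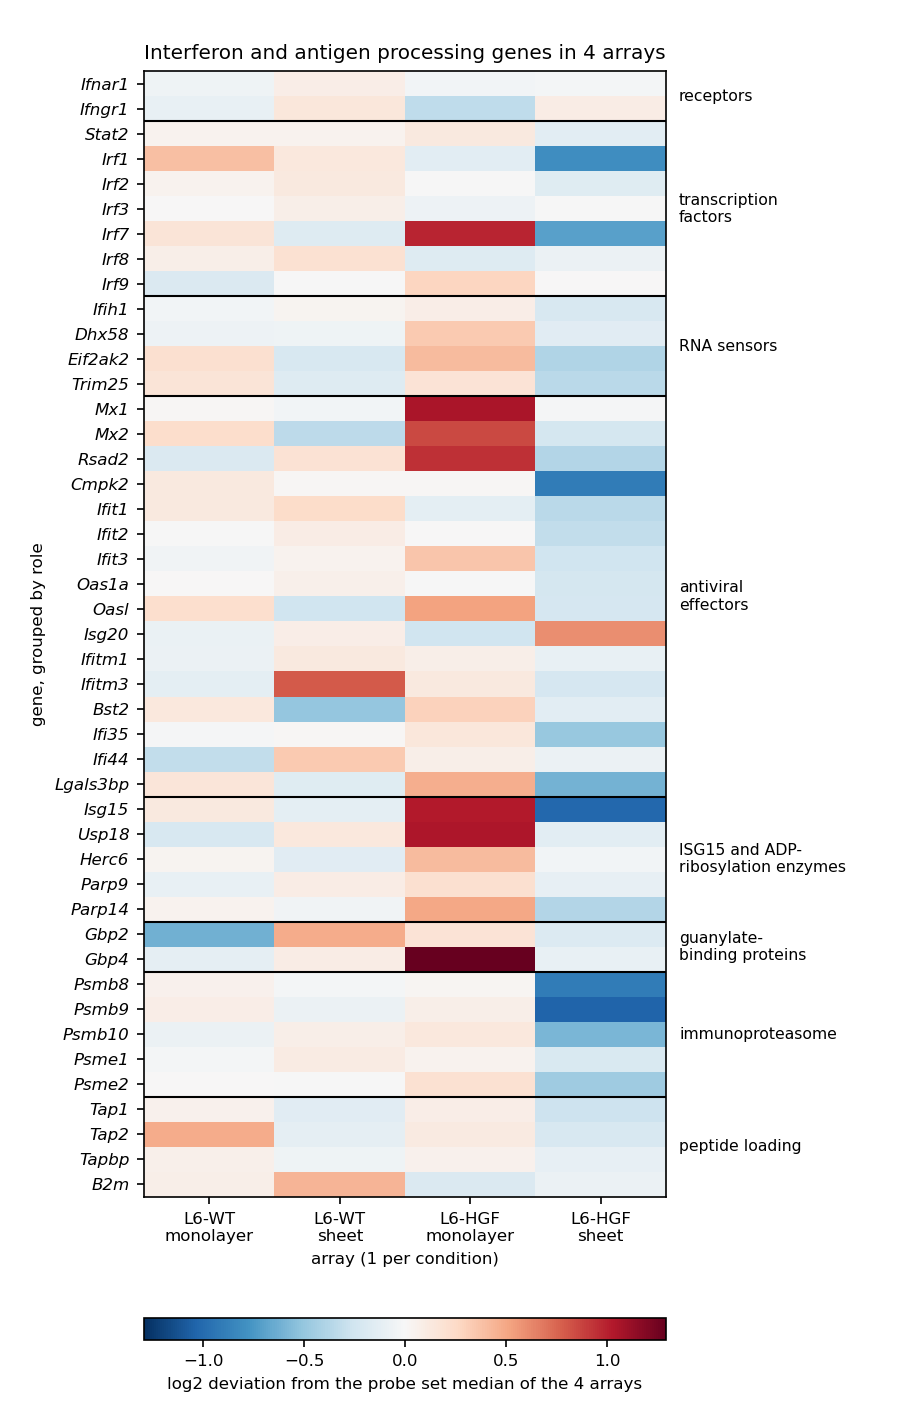
Deviation of each of 45 genes (rows, grouped by role) from the median of the 4 arrays (columns, 1 array per condition), as a colour on the log2 scale from blue (below) to red (above). The darkest red cells are in the L6-HGF monolayer, led by Gbp4 at 1.29, and the darkest blue cells are in the L6-HGF sheet, led by Psmb9 at -1.04.

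In monolayers, 4 of the 45 genes exceeded L6-WT by more than 2-fold in L6-HGF and 0 lay more than 2-fold under it, against 0.225% and 0.309% of all genes. Mx1 stood 2.06-fold, Rsad2 2.19-fold, Usp18 2.37-fold and Gbp4 2.65-fold higher. The median log2 difference over the members was 0.16, with 31 above 0 and 14 below 0, against 0.0016 over all genes, of which 50.4% were above 0 and 49.4% below. In sheets the direction was the opposite one. There 1 gene, Ifitm3, was more than 2-fold lower in L6-HGF (2.02-fold) and 0 were higher, against 0.95% and 0.492% of all genes. The median was -0.27, with 38 members below 0 and 7 above 0, against -0.02 over all genes, of which 53.7% were below 0 and 46.2% above. In all, 25 members were above 0 in monolayers and below 0 in sheets, against 23.1% of all genes.

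**Figure D2:**
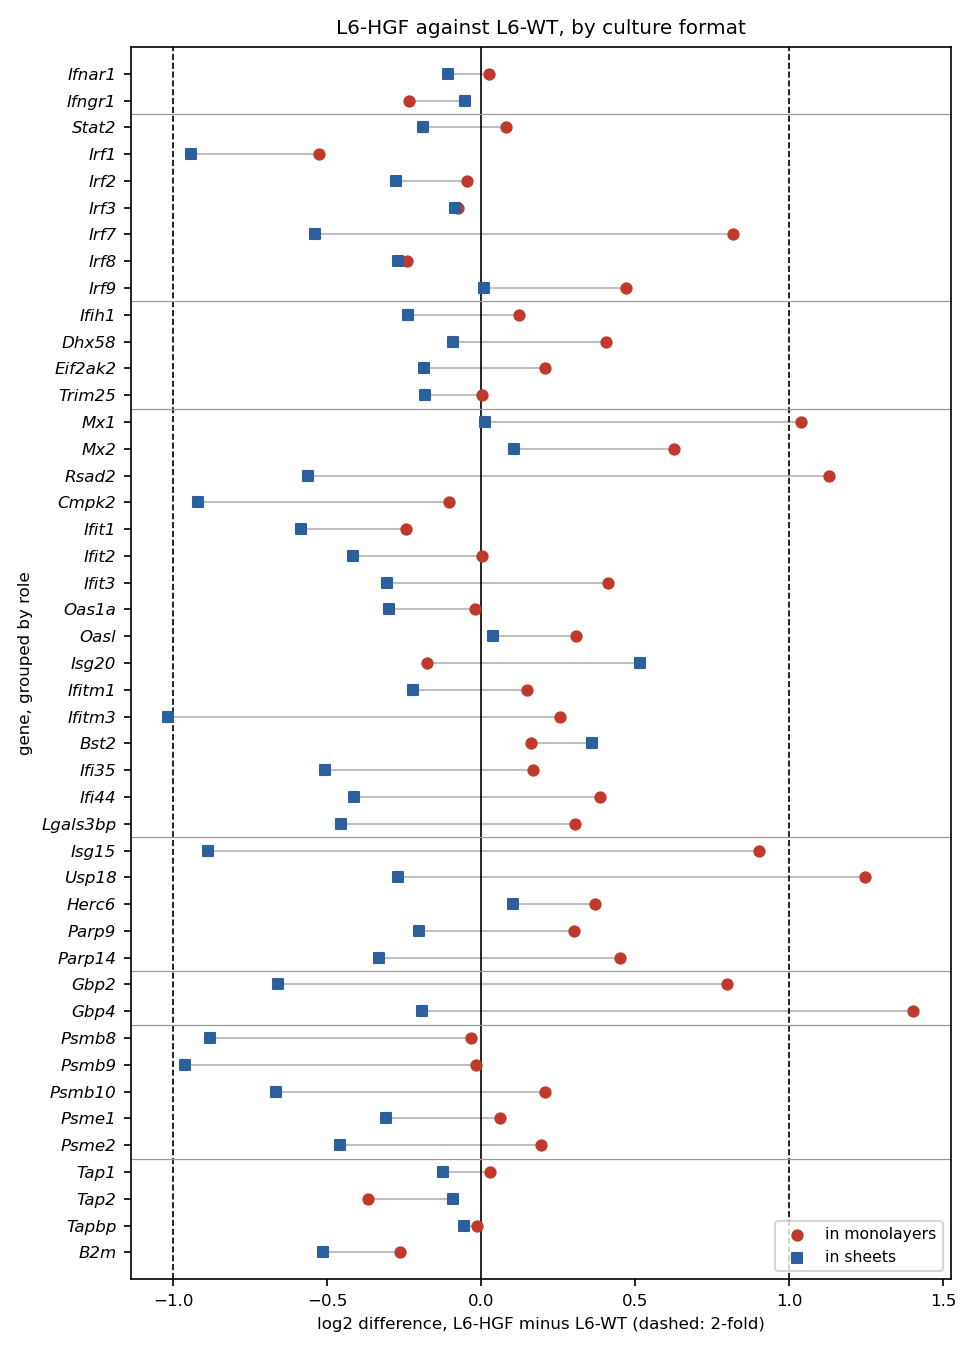
L6-HGF minus L6-WT on the log2 scale (horizontal axis) for each of 45 genes (vertical axis, grouped by role), in monolayers (red circles) and in sheets (blue squares), with 1 array behind each condition and 2-fold drawn as dashed lines. The squares lie to the left of the circles for 41 of the 45 genes, and Isg20 shows the widest gap the other way, with -0.18 in monolayers and 0.52 in sheets.

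The format of culture was compared in each line. In L6-HGF, 9 of the 45 genes were more than 2-fold lower in the sheet than in the monolayer and 0 were higher, against 2.57% and 1.17% of all genes, and the median was -0.43, against 0.03 over all genes. Below 0 were 39 members and above it 6, against 45.9% and 53.9% of all genes. Those 9 were Isg15 (4.11-fold), Irf7 (3.21-fold), Gbp4 (2.62-fold), Rsad2 (2.50-fold), Usp18 (2.26-fold), Psmb9 (2.16-fold), Mx2 (2.12-fold), Lgals3bp (2.11-fold) and Mx1 (2.10-fold). With quantile normalization 7 of them remained, and Psmb9 (-0.81) and Lgals3bp (-0.91) were within 2-fold. In L6-WT, 1 gene, Gbp2 (2.14-fold), was higher in the sheet and 0 were lower, against 0.717% and 0.492% of all genes, with a median of 0.06. Above 0 were 26 members and below it 19, against 54.2% and 45.6% of all genes. The comparisons by format and by line share arrays, so they are not separate evidence of the same pattern.

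**Figure D3:**
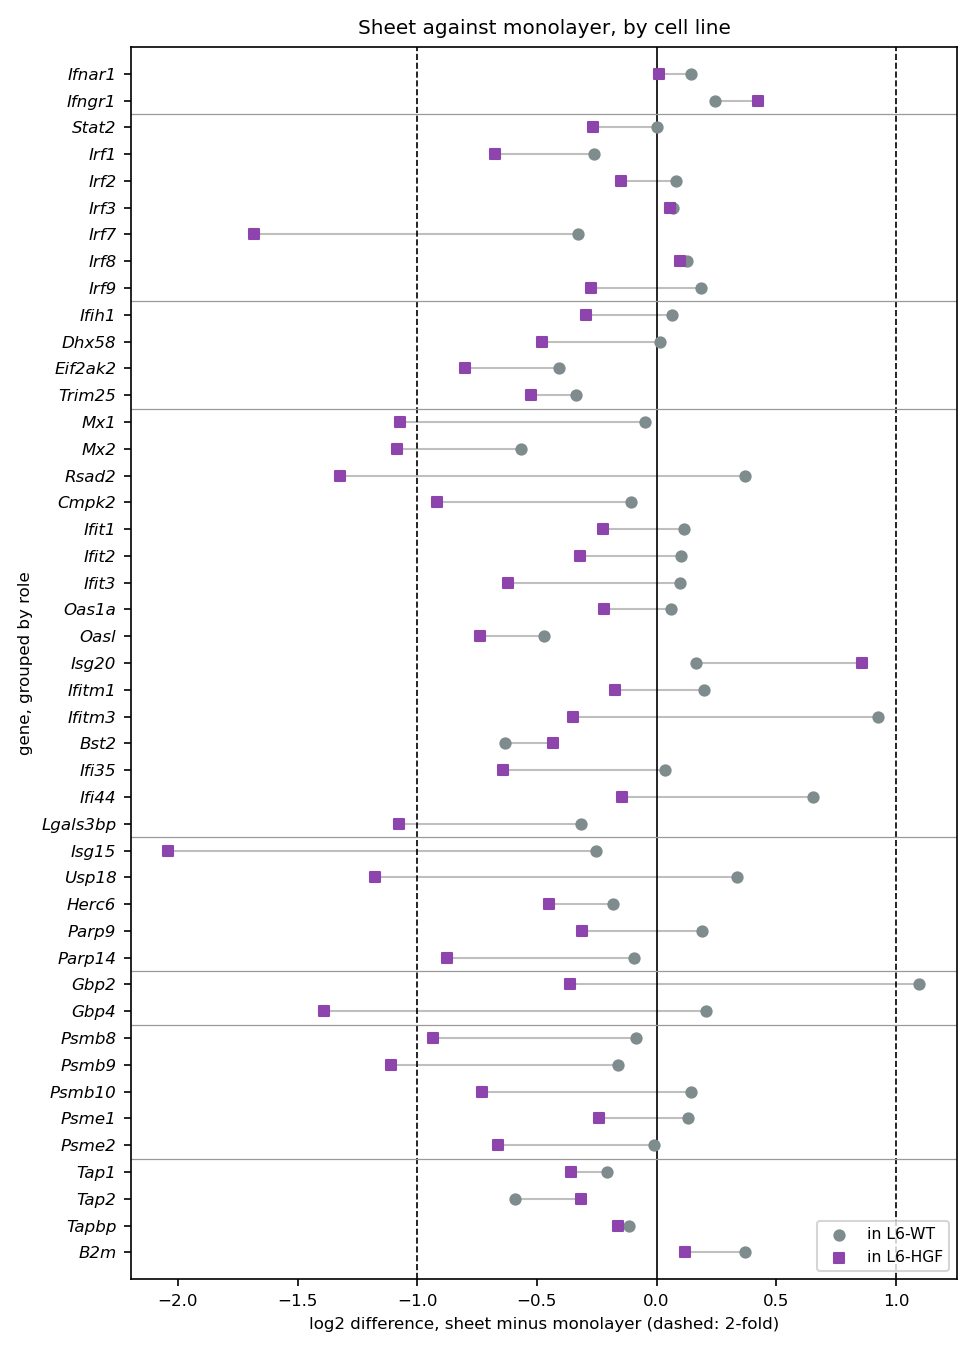
Log2 difference between sheet and monolayer (horizontal axis) for each of 45 genes (vertical axis, grouped by role), in L6-WT (grey circles) and in L6-HGF (purple squares), with 1 array behind each condition and 2-fold drawn as dashed lines. Of the purple squares 9 lie past the left dashed line, whereas the grey circles lie between -0.63 and 1.10.

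The hHGF effect in sheets minus that in monolayers was more than 2-fold negative for 8 genes and more than 2-fold positive for 0, against 1.43% and 0.471% of all genes. The 8 genes were Isg15 (-1.79), Rsad2 (-1.69), Gbp4 (-1.60), Usp18 (-1.52), Gbp2 (-1.46), Irf7 (-1.36), Ifitm3 (-1.27) and Mx1 (-1.03). The median was -0.42, with 41 members below 0, against -0.01 and 52.4% over all genes. An interaction of 4 single arrays leaves no residual, so this difference has no test.

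Promoter windows were read for the members from RefSeq (build GRCr8), from 250 bases before to 50 bases after the gene start, and 39 of the 47 genes matched by symbol. Not in that table were Dhx58, Ifit1, Ifit2, Ifitm1, Irf2, Isg15, Mx2 and Usp18. The core of the interferon-stimulated response element was searched as GAAA, any 2 bases and GAAA again, on both strands, so that TTTC, any 2 bases and TTTC also counted. It was in 23 of the 39 windows (59.0%), against 3.92% of all 33469 promoters of the same length. The letters TTCNNNGAA, the core of the gamma-activated sequence, which reads the same on both strands, were in 8 windows (20.5%), against 8.87%. Both motifs occurred together in 5 windows and neither occurred in 13. Of the 28 matches to the response element core, which can overlap, 27 lay before the gene start, at 4 to 150 bases from it. These letters are a match and not a measured binding site. Below are the windows of the 6 members in that table with the largest value in any of the 4 comparisons of 2 arrays, in lower case, with the core, on either strand, in capitals. They lie at Irf7 at chr1:205799974-205800273 on the minus strand, Rsad2 at chr6:48788071-48788370 on the minus strand, Lgals3bp at chr10:104127799-104128098 on the minus strand, Gbp4 at chr2:233978236-233978535 on the plus strand, Gbp2 at chr2:234005477-234005776 on the plus strand and Psmb9 at chr20:4668750-4669049 on the plus strand.
Irf7: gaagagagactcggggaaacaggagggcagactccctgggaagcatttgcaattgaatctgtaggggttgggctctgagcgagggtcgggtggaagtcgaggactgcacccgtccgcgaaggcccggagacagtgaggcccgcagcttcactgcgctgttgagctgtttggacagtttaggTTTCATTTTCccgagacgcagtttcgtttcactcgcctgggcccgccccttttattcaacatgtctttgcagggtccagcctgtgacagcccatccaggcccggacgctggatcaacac
Rsad2: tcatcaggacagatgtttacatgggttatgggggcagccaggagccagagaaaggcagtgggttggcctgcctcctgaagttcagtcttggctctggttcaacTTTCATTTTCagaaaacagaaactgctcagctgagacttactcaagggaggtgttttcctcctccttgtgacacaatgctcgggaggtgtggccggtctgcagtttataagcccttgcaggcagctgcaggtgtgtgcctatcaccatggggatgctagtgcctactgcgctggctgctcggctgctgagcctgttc
Lgals3bp: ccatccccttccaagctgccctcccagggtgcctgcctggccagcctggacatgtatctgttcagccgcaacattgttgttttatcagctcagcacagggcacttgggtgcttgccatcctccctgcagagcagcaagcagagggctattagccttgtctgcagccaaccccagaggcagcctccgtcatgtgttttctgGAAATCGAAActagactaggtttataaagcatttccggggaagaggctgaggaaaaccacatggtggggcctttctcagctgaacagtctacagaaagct
Gbp4: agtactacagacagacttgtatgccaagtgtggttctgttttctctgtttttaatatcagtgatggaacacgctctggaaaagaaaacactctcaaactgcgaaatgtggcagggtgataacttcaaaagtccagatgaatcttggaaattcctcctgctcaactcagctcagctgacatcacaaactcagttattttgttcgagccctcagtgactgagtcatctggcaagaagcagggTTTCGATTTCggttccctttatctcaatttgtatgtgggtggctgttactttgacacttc
Gbp2: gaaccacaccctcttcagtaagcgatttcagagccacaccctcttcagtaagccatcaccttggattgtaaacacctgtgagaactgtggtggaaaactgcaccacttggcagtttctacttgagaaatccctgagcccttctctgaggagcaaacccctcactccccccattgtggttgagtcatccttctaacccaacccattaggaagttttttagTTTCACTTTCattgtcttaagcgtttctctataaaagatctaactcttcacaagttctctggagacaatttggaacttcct
Psmb9: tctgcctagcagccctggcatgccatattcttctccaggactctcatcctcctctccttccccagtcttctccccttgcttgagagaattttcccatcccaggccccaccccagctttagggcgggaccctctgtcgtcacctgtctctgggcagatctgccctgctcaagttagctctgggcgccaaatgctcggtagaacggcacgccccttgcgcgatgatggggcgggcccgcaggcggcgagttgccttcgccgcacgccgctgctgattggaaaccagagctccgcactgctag
The match in Gbp4 lay 10 bases before the gene start, in Gbp2 31, in Lgals3bp 50, in Irf7 69 and in Rsad2 147. The Psmb9 window held no match, and it overlaps that of Tap1 on the other strand, where a match, TTTCGGTTTC, lay 121 bases before the Tap1 start. The matches in the immunoproteasome and peptide loading genes included GAAAGCGAAA in both Psme2 and Tap2, at 53 and 41 bases before the start, and in Psmb10 at 17 bases. All 3 guanylate-binding protein genes and all 4 peptide loading genes held the core, whereas neither receptor gene did, and among 6 factor genes it was in Irf7. Over the 21 measured members with the core, the hHGF effect in sheets minus that in monolayers had a median of -0.72, and over 16 measured members without it in the window -0.32. Outside the list, the medians were -0.05 over 356 genes with the core and -0.02 over 11340 without it. The measured members that have no window, from Isg15 (-1.79) to Irf2 (-0.23), are in neither group of members. Mx1, without the core, had -1.03, whereas the 4 peptide loading genes, all with it, had a median of -0.10. Whether the core has a part in these differences was not tested.

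The receptor genes differed little between cultures. Ifnar1, as the mean of 6 probe sets, had deviations of -0.06 in the L6-WT monolayer, 0.09 in the L6-WT sheet, -0.03 in the L6-HGF monolayer and -0.02 in the L6-HGF sheet. Ifngr1 had -0.10 and 0.15 in the L6-WT monolayer and sheet, and -0.33 and 0.10 in the L6-HGF monolayer and sheet. Neither gene passed 2-fold in any comparison, and the probe sets of Ifnar1 differed from each other by up to 0.52 on the log2 scale.

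Among the transcription factors, Irf7 and Irf1 differed most. Irf7, the factor that amplifies the type I response, had deviations of 0.16 in the L6-WT monolayer, -0.16 in the L6-WT sheet, 0.98 in the L6-HGF monolayer and -0.70 in the L6-HGF sheet. It was thus highest and lowest in the 2 L6-HGF cultures, with log2 values of L6-HGF minus L6-WT of 0.82 in monolayers and -0.54 in sheets. Irf1 had 0.39, 0.13, -0.13 and -0.81 in the same order of arrays, so that both L6-HGF cultures lay below both wild-type ones, by 1.44-fold in monolayers and 1.92-fold in sheets. Stat2, a subunit of the complex that binds the response element, had 0.05, 0.05, 0.13 and -0.14, and its 2 probe sets had hHGF effects in monolayers of -0.17 and 0.32. Irf9, the DNA-binding subunit of that complex, had -0.19, -0.0053, 0.28 and 0.0053, with a log2 difference of 0.47 in monolayers and 0.01 in sheets. Irf2, Irf3 and Irf8, which act respectively as a repressor, a sensor-activated inducer and a myeloid factor, lay between -0.28 and -0.05 in both comparisons of L6-HGF with L6-WT.

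As means of their probe sets, all 4 RNA sensor genes and their regulators were highest in the L6-HGF monolayer and lowest in the L6-HGF sheet. Of the 3 probe sets of Dhx58, however, 1 was lowest in the L6-WT sheet, at -0.18, and another in the L6-WT monolayer, at -0.31. Eif2ak2, the kinase PKR that halts translation on double-stranded RNA, was lower in the sheet of both lines, by 1.33-fold in L6-WT and 1.74-fold in L6-HGF. Dhx58 (LGP2), Ifih1 (MDA5) and the ubiquitin ligase Trim25 had L6-HGF minus L6-WT values of 0.41, 0.12 and 0.0024 in monolayers, and of -0.09, -0.24 and -0.18 in sheets.

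Of the 16 antiviral effectors measured, 12 were above 0 between the monolayers and 11 below 0 between the sheets, as L6-HGF minus L6-WT. Over all genes these shares were 50.4% and 53.7%. Mx1, a GTPase that traps viral nucleocapsids, had deviations of 0.02 in the L6-WT monolayer, -0.03 in the L6-WT sheet, 1.06 in the L6-HGF monolayer and -0.02 in the L6-HGF sheet. The L6-HGF monolayer alone stood apart, more than 2-fold above each of the other 3 arrays, which lay within 0.05 of each other. Rsad2 (viperin), an enzyme that makes a chain-terminating nucleotide, had -0.18, 0.18, 0.94 and -0.38, with the L6-HGF monolayer again highest. Mx2, a relative of Mx1, had 0.23, -0.34, 0.85 and -0.23 averaged over 2 probe sets, which disagreed. One of them had a sheet minus monolayer difference of -1.08 in L6-WT and -2.08 in L6-HGF, and the other -0.05 and -0.09. Their hHGF effects in monolayers were 1.11 and 0.14 in the same order, so that only the first of them passed 2-fold there.

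Lgals3bp, a secreted glycoprotein, had 0.16 in the L6-WT monolayer, -0.16 in the L6-WT sheet, 0.46 in the L6-HGF monolayer and -0.61 in the L6-HGF sheet. It was lower in the sheet of both lines, by 1.25-fold in L6-WT and 2.11-fold in L6-HGF. Ifitm3, a membrane protein that blocks virus entry, had -0.13, 0.80, 0.13 and -0.22, and so differed from the genes above in that the L6-WT sheet was highest. Its probe set is of a kind that reads several transcripts of the gene. Cmpk2, a mitochondrial nucleotide kinase, had a log2 difference between the lines of -0.10 in monolayers and -0.92 in sheets, where both of its probe sets lay below 0, at -1.30 and -0.53. Isg20, an exonuclease, was the one member highest in the L6-HGF sheet, at 0.60, and was 1.81-fold higher in the L6-HGF sheet than in the L6-HGF monolayer. The classical effectors Ifit1, Ifit2, Ifit3 and Oas1a, which bind viral RNA or sense it, lay between -0.24 and 0.41 in monolayers and between -0.59 and -0.30 in sheets. Of the remaining effectors, Oasl, Bst2, Ifi35, Ifi44 and Ifitm1, all 5 were above 0 in monolayers, at 0.15 to 0.39, and in sheets they ranged from -0.51 to 0.36.

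With genes as means of their probe sets, Isg15 showed the widest range of any member, though 1 probe set of Mx2 ran wider, from -0.60 to 1.60. Isg15 encodes a ubiquitin-like protein that is attached to other proteins during the response, and Usp18 removes it again and dampens the type I receptor. Isg15 had deviations of 0.13 in the L6-WT monolayer, -0.13 in the L6-WT sheet, 1.03 in the L6-HGF monolayer and -1.01 in the L6-HGF sheet. Against L6-WT it was 1.87-fold higher in the monolayer and 1.85-fold lower in the sheet, so that neither comparison passed 2-fold although both L6-HGF arrays lay at the ends. Usp18 had -0.20, 0.13, 1.04 and -0.13, with the L6-HGF monolayer apart from the other 3. The ISG15 ligase Herc6 and the ADP-ribosyltransferases Parp9 and Parp14 were all highest in the L6-HGF monolayer, with log2 differences from L6-WT of 0.37, 0.30 and 0.45 there and 0.10, -0.20 and -0.33 in sheets.

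Guanylate-binding proteins are large GTPases that attack the compartments of pathogens. Gbp4 had -0.11 in the L6-WT monolayer, 0.10 in the L6-WT sheet, 1.29 in the L6-HGF monolayer and -0.10 in the L6-HGF sheet, so that, like Mx1 and Usp18, it was high in the L6-HGF monolayer and at a similar deviation in the other 3. Gbp2 had -0.62, 0.48, 0.18 and -0.18. Here the L6-WT monolayer was the lowest array, and the difference between the lines was 0.80 in monolayers and -0.66 in sheets.

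The immunoproteasome subunits were lower in the L6-HGF sheet than in the other cultures. These catalytic subunits, Psmb8, Psmb9 and Psmb10, replace their standard counterparts and change the peptides that a cell makes for MHC class I, and Psme1 and Psme2 form the PA28 cap. Psmb9 had deviations of 0.09 in the L6-WT monolayer, -0.07 in the L6-WT sheet, 0.07 in the L6-HGF monolayer and -1.04 in the L6-HGF sheet. Psmb8 had 0.06, -0.03, 0.03 and -0.91. For both genes the first 3 arrays lay within 0.16 of each other and the L6-HGF sheet was 1.84-fold to 1.95-fold below the L6-WT sheet. As means of probe sets, all 5 subunits were lowest in the L6-HGF sheet, with log2 differences from the L6-WT sheet of -0.67 for Psmb10, -0.46 for Psme2 and -0.31 for Psme1. The 2 probe sets of Psme1 disagreed, and 1 of them had -0.13 in the L6-WT monolayer, 0.31 in the L6-WT sheet, -0.06 in the L6-HGF monolayer and 0.06 in the L6-HGF sheet. Between the monolayers the 5 genes lay between -0.03 and 0.21. Of 24 genes of the standard proteasome, 0 passed 2-fold in any of the 4 comparisons, and their median hHGF effect was 0.30 in monolayers and -0.02 in sheets. These genes shared the direction by format in L6-HGF, with 21 of 24 below 0 in the sheet against the monolayer (median -0.22). Their hHGF effect in sheets minus that in monolayers was below 0 for 22 of 24 (median -0.26), and 15 were highest in the L6-HGF monolayer.

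The peptide loading genes differed less. Tap1, a subunit of the pump that carries peptides into the endoplasmic reticulum, had 0.06 in the L6-WT monolayer, -0.15 in the L6-WT sheet, 0.08 in the L6-HGF monolayer and -0.27 in the L6-HGF sheet. In sheets its 2 probe sets gave hHGF effects of 0.26 and -0.51, so its direction there depends on the probe set. B2m, the light chain of MHC class I, had 0.07, 0.44, -0.19 and -0.07, with both L6-HGF cultures below both wild-type ones. The log2 difference between the lines was -0.26 in monolayers and -0.51 in sheets, and both of its probe sets lay below 0 in each format. Tap2, the partner of Tap1 in the pump, was highest in the L6-WT monolayer at 0.48. Tapbp (tapasin), which bridges the pump to MHC class I, lay between -0.11 and 0.06 over the 4 arrays.

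A limma model over all 4 arrays, with a term each for format and line, which leaves 1 residual degree of freedom, was fitted to all 31042 probe sets for an effect common to both formats or to both lines. For hHGF, 0 of the 63 probe sets of the members and 0 of all (0%) had a limma adjusted p under 0.05, and the smallest was 0.505. At an unadjusted p under 0.05, 3 probe sets of members were lower in L6-HGF and 0 were higher, against 4.84% and 4.75% of all probe sets. The count of lower ones is close to the share of all probe sets, so it does not set the members apart. The 3 lower ones, none of which passed after adjustment, were Irf1, a probe set of B2m, and Ifit1. Their log2 differences were -0.73 (95% confidence interval -1.15 to -0.32), -0.53 (-0.91 to -0.15) and -0.41 (-0.79 to -0.04). For the sheet, 0 of the 63 and 0 of all (0%) had a limma adjusted p under 0.05, and the smallest among the members was 0.164. At an unadjusted p under 0.05, 11 were lower in sheets and 1, Ifngr1, was higher, against 11.5% and 8.87% of all probe sets. The 11 were Mx2, Oasl, Bst2, Eif2ak2, Trim25, Tap2, Cmpk2, Dhx58, Tap1, Irf1 and Lgals3bp, each by 1 probe set. A gene whose difference turns its direction between formats has a common effect near 0 in this model by its construction, and its residual is large.

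Other genes of the pathway were taken from lists of 151 genes, of which 116 had a probe set. Over all genes 4.76% passed 2-fold in any of the 4 comparisons of 2 arrays, and among the members 11 of 45 did. Of the lists, the share was 5 of 35 other interferon-induced genes, 2 of 13 nucleic acid sensing genes, 1 of 15 interferon, receptor and JAK-STAT genes, 1 of 16 MHC class I genes, 1 of 9 MHC class II genes and 1 of 4 chemokines, where 1 gene of a list is too few to set it apart from that background. Of 35 other interferon-induced genes, 20 were lowest in the L6-HGF sheet and 16 highest in the L6-HGF monolayer, against 25.9% and 23.3% of all genes. In L6-HGF, 4 of them, Rtp4 (2.69-fold), Ube2l6 (2.26-fold), Pml (2.14-fold) and Parp12 (2.07-fold), were more than 2-fold lower in the sheet than in the monolayer. Between the sheets, L6-HGF lay more than 2-fold under L6-WT for 2 of them, namely Ifi44l (2.34-fold) and Rtp4 (2.22-fold), a chaperone of receptors, and between the monolayers 0 passed 2-fold. With quantile normalization Rtp4 between the sheets (-0.87), and Ube2l6 (-0.98), Pml (-0.98) and Parp12 (-0.96) by format, were within 2-fold. Their median hHGF effect was 0.14 in monolayers and -0.21 in sheets. Ube2l6 is the conjugating enzyme of ISG15, and its deviations, 0.01 in the L6-WT monolayer, -0.01 in the L6-WT sheet, 0.49 in the L6-HGF monolayer and -0.69 in the L6-HGF sheet, were ordered as those of Isg15.

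Of 13 nucleic acid sensing genes, 2 passed 2-fold in any of the 4 comparisons. Rig1, which encodes the RNA sensor RIG-I, had 0.33, -0.33, 0.76 and -1.17 in the same order of arrays and was 3.82-fold lower in the L6-HGF sheet than in the L6-HGF monolayer. Sting1, the adaptor of the DNA sensor cGAS, had -0.01, 0.01, 0.23 and -0.98 and was 2.32-fold lower in that comparison, or -0.92 on the log2 scale with quantile normalization. Of the 15 interferon, receptor and JAK-STAT genes, Il10rb, a receptor chain shared with interleukin-10, was the one past 2-fold, at 2.29-fold higher in the L6-WT sheet than in the L6-WT monolayer. The ligand genes Ifnb1 and Ifng, named after their values were seen, had hHGF effects of -0.35 and 0.07 in monolayers and of 0.05 and 0.05 in sheets.

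Of 16 MHC class I, loading and trimming genes, RT1-N3 was the one past 2-fold in any of the 4 comparisons, and of 9 MHC class II genes it was RT1-DMa. They were 2.20-fold and 2.53-fold lower in the L6-HGF sheet than in the L6-HGF monolayer, and RT1-N3 was within 2-fold (-0.93) with quantile normalization. Probe sets of the RT1 families may read close relatives, so the assignment to a single RT1 gene is uncertain. The median hHGF effect over the class I list was 0.02 in monolayers and 0.02 in sheets, and over the class II list -0.08 and -0.08. Of 4 interferon-inducible chemokines, Cxcl10 had the largest difference of the hHGF effect between formats of all 14217 genes, at -2.96, with deviations of -0.28 in the L6-WT monolayer, 0.28 in the L6-WT sheet, 0.90 in the L6-HGF monolayer and -1.51 in the L6-HGF sheet. Cxcl9, Cxcl11 and Ccl5 stayed within 2-fold.

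**Figure D4:**
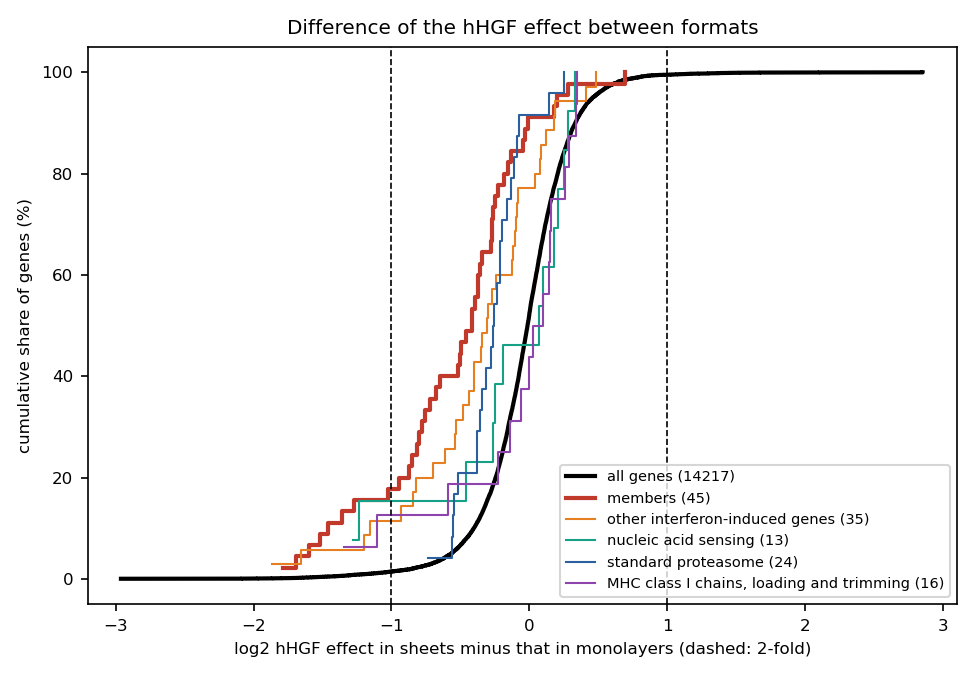
Cumulative share of genes (vertical axis, percent) against the log2 hHGF effect in sheets minus that in monolayers (horizontal axis), for all 14217 genes, the 45 members and 4 pathway lists, with dashed lines at 2-fold. The curve of the members lies to the left of that of all genes, with a median of -0.42 against -0.01, and that of the other interferon-induced genes has a median of -0.31.

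Signal levels are not in these values, so the presence of myoblast or other markers could not be checked, only their differences. Of 11 leukocyte markers 0 passed 2-fold in any comparison, and their deviations lay between -0.42 and 0.22 over the 4 arrays. Of 7 endothelial markers 0 passed 2-fold, with deviations between -0.21 and 0.25. Of 8 myoblast markers Itga7 was the one past 2-fold, lower in the sheet of both lines, and the median hHGF effect was -0.15 in monolayers and -0.01 in sheets. The 8 fibroblast markers varied with format and line. Dpt, Lum and Dcn were more than 2-fold higher in the sheet of both lines, Dpt and Mfap5 lay more than 2-fold under L6-WT in L6-HGF in both formats, and the median deviations of the list were 0.12, 0.62, -0.32 and -0.37 in the order used above. The hHGF effect in sheets was below 0 for 8 of the 8 fibroblast markers (median -0.65), and that effect minus the one in monolayers for 7 of 8 (median -0.40, against -0.42 over the members). Their part in the differences of the interferon genes was not tested.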

How the data were processed

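RNA of 4 cultures, with 1 Affymetrix rat genome array each, was measured. The authors normalized the arrays with RMA, which the submitters' processing notes also name (version not given in the sources used here), and deposited log2 values centred on the median of each probe set over the 4 arrays. Depth does not apply to arrays, and their number limits the precision. After 57 control probe sets were left out, 31042 remained, of which 20826 had 1 gene symbol, 436 several and 9780 none listed. A gene is the mean of its probe sets (14217 genes). Differences were called past 2-fold, as in the study, and background shares were counted over all genes. The members, lists and naming rule (members past 2-fold in any comparison of 2 arrays, 10 genes for their role, and pathway genes past 2-fold) were chosen with earlier results of these data known. The role genes were Ifnar1, Ifngr1, Stat2, Irf9, Irf1, Irf7, Isg15, Psmb8, Tap1 and B2m, and other members singled out (such as Cmpk2, Isg20 and Eif2ak2) were chosen after their values were seen. For 3 list names a newer symbol was used through RefSeq synonyms. limma (version 3.58.1, R 4.3.3) was fitted with both terms and Benjamini-Hochberg adjustment, and was tested on simulated data. Alternatives were quantile normalization, arrays shifted to a median of 0, the median of probe sets, probe sets ending in _x_at, _s_at or _a_at left out, a 1.5-fold threshold, and, for limma, 1 term or genes as units. Promoters were those of RefSeq (GRCr8). Python 3.11.15, pandas 2.3.3, numpy 2.4.6 and matplotlib 3.10.9 did the rest. A filter on dim probe sets could not be made without signal levels.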

Additional observations from a re-analysis of the deposited data

Results flagged for a closer look

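For 7 of the 45 members L6-HGF minus L6-WT was positive in monolayers and negative in sheets, with more than 2-fold between the formats. Of all genes, 23.1% had these signs and 1.43% had a difference more than 2-fold negative. The share of all genes with both was not counted. The sheet value minus the monolayer value, on the log2 scale, was -1.46 for Gbp2, -1.60 for Gbp4, -1.27 for Ifitm3, -1.36 for Irf7, -1.79 for Isg15, -1.69 for Rsad2 and -1.52 for Usp18. Of the pathway genes past 2-fold in any of the 4 comparisons of 2 arrays, 7 had the same pattern. Their values were -1.28 for Rig1, -1.24 for Sting1, -1.66 for Ifi44l, -1.86 for Rtp4, -1.15 for Ube2l6, -1.10 for RT1-N3 and -2.96 for Cxcl10. Slfn2 (-1.20) and RT1-T24-4 (-1.35) had it too, but were within 2-fold in each of those 4 comparisons. Il10rb, Parp12, Pml and RT1-DMa were past 2-fold in those comparisons without the pattern. Pathway genes past 2-fold were picked on these same arrays, which by itself favours a large difference between formats. The share of all genes past 2-fold with the pattern was not counted. Over the 45 members the median hHGF effect was 0.16 in monolayers and -0.27 in sheets. Each format had 1 array per line, so none of these differences was tested.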

How the results depend on the processing

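Among the values of the genes named, a difference past 2-fold kept its sign under every alternative that could be computed for it. Of these values under the alternatives, 42 moved by the SD of the bacterial controls or more and 553 by less. The medians over the members moved by less than that SD in each of the 5 comparisons. It is a spread of single probe sets, and so a wide allowance for a median over many genes. With a 1.5-fold threshold, 8 members were higher in L6-HGF monolayers and 9 were lower in L6-HGF sheets, against 1.22% and 3.58% of all genes. In the sheet of L6-WT 3 were higher and 2 lower, against 3.37% and 3.76% of all genes. In the sheet of L6-HGF 1 was higher and 19 lower, against 4.02% and 7.28% of all genes. At that threshold the hHGF effect in sheets minus that in monolayers was positive for 1 member and negative for 18, against 2.57% and 4.68%. Without probe sets ending in _x_at, _s_at or _a_at, 42 members remained, Ifitm3 was lost with its probe set, and 0 lay more than 2-fold under L6-WT in L6-HGF sheets. With quantile normalization, 2 members were higher in the sheet of L6-WT, against 1.15% of all genes. Of the genes of the pathway lists, Rig1 (-0.93), Sting1 (-0.93), Ube2l6 (-0.94) and RT1-N3 (-0.88) then had a difference between formats within 2-fold. The limma model gave 0 probe sets of members at an adjusted p under 0.05 in every setting run. Over all features, 53 probe sets passed for the sheet effect with quantile normalization and 2 genes with genes as units. No replicate numbers exist to pair the arrays, the limma model compares the lines within each format, and no array could be left out within a comparison of 2. Quantile normalization acted on centred values and is no normalization of signal. Whether a member is near background cannot be seen from these values.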
